A study of Mus musculus with 42 samples.

Results

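The genes described here mark macrophages, dendritic cells and antigen presentation on MHC class II in the reproductive tract of Hox mutant mice. They were taken from the platform annotation as probe sets whose single gene symbol is one of 36 listed genes, and 35 of the 36 were measured, each by 1 probe set, among 19938 genes in all. H2-DMb1 was left out because its probe set carries a second symbol.

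Macrophages and dendritic cells take up material from their surroundings and display peptides from it to helper T cells on MHC class II molecules. The transactivator Ciita drives the class II genes, the invariant chain Cd74 guides new class II molecules through the cell, cathepsin S (Ctss) removes that chain, and H2-DM loads the peptide. Resident macrophages depend on the receptor Csf1r, dendritic cell precursors use the receptor Flt3, and in the uterus such cells share the stroma with muscle, glands and vessels and change in number over the oestrous cycle.

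Expression was measured on 42 Affymetrix arrays, 3 for each of 14 groups, from adult mice of CD1/129 background aged 3 to 7 months. Uterus and vas deferens had 5 genotypes each: wild type (WT), Hoxa9,10,11-/- (AKO), Hoxd9,10,11-/- (DKO), Hoxa9,10,11-/- with Hoxd9,10,11+/- (AKDH), and Hoxa9,10,11+/- with Hoxd9,10,11-/- (AHDK). Oviduct and caudal epididymis had WT and AKO only, and the females were in diestrus. AKO and AKDH thus lack functional Hoxa9,10,11 and are called Hoxa-null here, and DKO and AHDK lack functional Hoxd9,10,11 and are called Hoxd-null. Every deposited value is a log2 value relative to the middle array of the 21 arrays of that sex, so 0 is that middle, the absolute level is lost, and levels cannot be set between genes or between sexes. Each tissue was a bulk extract, in which fewer cells of a type and less RNA per cell cannot be told apart.

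The median of single arrays over all probe sets lay between -0.0538 and 0.0371 and their SD between 0.177 and 0.644. Hoxa11 was -1.59 to 0.67 in the 6 Hoxa-null uterus arrays and 0.94 to 2.75 in the other 9, in the direction their labels give. Hoxd9, Hoxd10 and Hoxd11 of the DKO uterus overlapped WT (Hoxd9 was 0.00 to 0.31 in DKO and -0.10 to 0.50 in WT), so these probe sets do not check the DKO label there. Hoxd11 was -0.21 to 0.25 in AHDK and 0.36 to 1.19 in WT. It was also -1.11 to 0.23 in AKDH and -0.03 to 0.51 in AKO, and Hoxd9 and Hoxd10 of AHDK overlapped WT. These probe sets thus do not set the AHDK uterus apart from the Hoxa-null uteri, and do not check its label either. In vas deferens Hoxd9 was -0.86 to -0.56 in DKO and AHDK and -0.26 to 0.41 in WT, AKO and AKDH. WT oviduct replicate 2 stood apart by a mean of 2.31 over the ovary genes, AKO epididymis replicate 1 by 4.44 over the proximal epididymis genes, and AKDH vas deferens replicate 3 by a mean of 0.84 over the sperm genes beside -1.26 and -1.11 in the other two AKDH arrays. Oviduct replicate 3 of WT and of AKO had low means over the stroma genes, -1.80 and -1.65, beside -0.50 to -0.12 in the other oviduct arrays. Over the 35 genes described here their means were -0.79 and -0.71, beside -0.41 to -0.19.

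In the uterus most of the myeloid and class II genes lay above WT in all 4 mutants, with the larger median differences in the Hoxd-null genotypes. AHDK had 14 of the 35 higher and 0 lower at an adjusted p below 0.05 (limma, Benjamini-Hochberg over all genes), beside 3.53% of all genes called in either direction and 2.3% called higher. Of the 35, 34 lay above WT there, with a median log2 difference of 0.93, while the median of all genes was -0.02. DKO had 5 higher and 0 lower beside 0.973% of all genes called and 0.622% called higher, with 33 above WT and a median of 0.66. AKDH also had 5 higher and 0 lower, beside 6.58% called and 3.93% called higher, with 29 above WT and a median of 0.25. AKO had 0 called by limma, beside 0.0903% called and 0.0401% called higher, with 28 above WT and a median of 0.26. At an unadjusted p below 0.05 the members numbered 9 for AKO, 22 for DKO, 14 for AKDH and 28 for AHDK, beside 9.35%, 15.3%, 22.7% and 21.4% of all genes. All 3 mutant arrays lay above all 3 WT arrays for 15, 21, 10 and 29 members in the same order, beside 7.91%, 11.6%, 12.1% and 14.2% of all genes, and below them for 3, 0, 2 and 0 members, beside 4.86%, 9.27%, 14.6% and 15.4%. For 6 members (H2-Aa, H2-DMa, Cd74, Fcer1g, Cd163 and Cd209f) all 12 mutant arrays lay above WT, beside 1.55% of all genes. These 4 comparisons share the same 3 WT arrays.

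**Figure D1:**
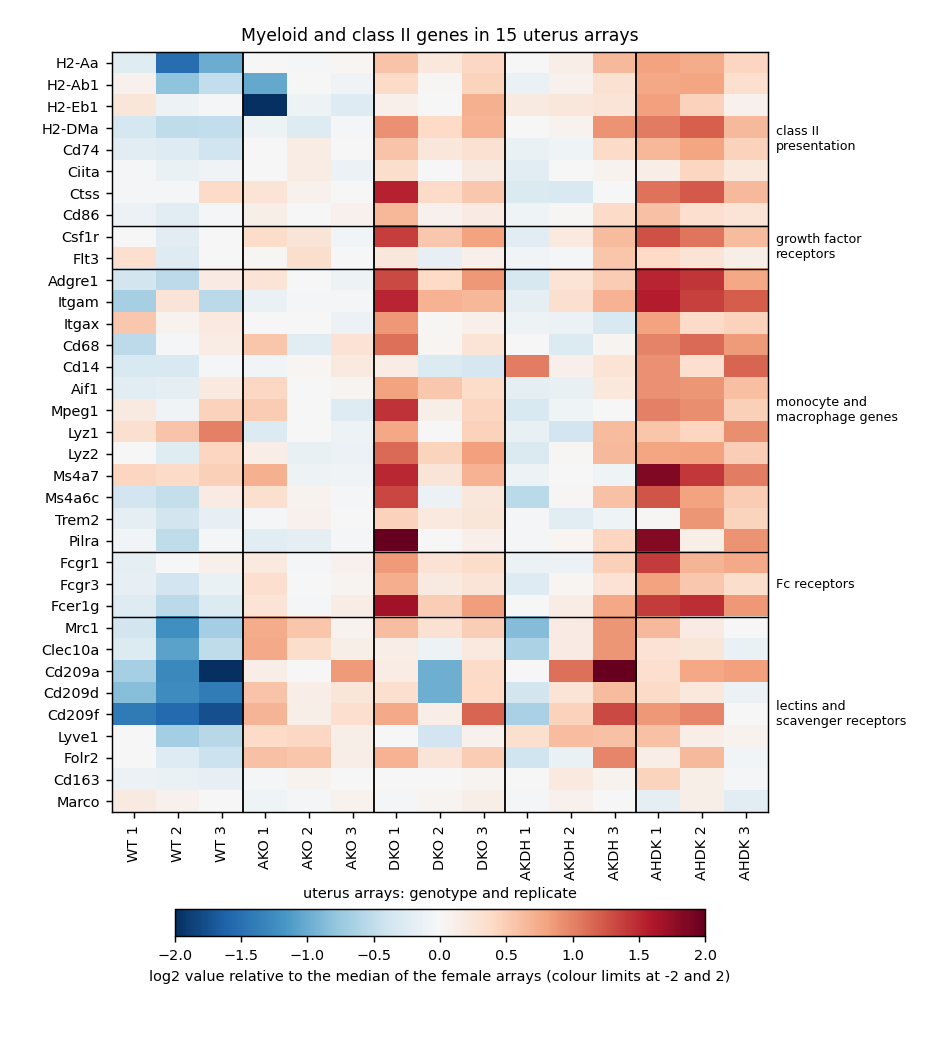
Log2 value, relative to the median of the female arrays, of each of the 35 genes (rows, grouped by role) in each of the 15 uterus arrays (columns, 3 per genotype). The AHDK arrays are red in most rows of the upper groups and DKO replicate 1 exceeds DKO replicates 2 and 3 in 26 rows, while the Cd209 genes are blue in all 3 WT arrays.

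Each of these counts moved when single arrays were left out, and those of DKO, AKDH and AHDK also moved with quantile normalization. The count in AKO was 1 without WT replicate 1, where 40 of all genes were called beside 18 with all arrays. The count in DKO was 1 without WT replicate 1 and 0 without any other of the 6 arrays, and 0 after quantile normalization. The genes called in all fell there from 194 to between 2 and 133 without 1 array, and to 19 after quantile normalization. The count in AKDH was 0 without WT replicate 2, WT replicate 3 or AKDH replicate 3 and 8 without AKDH replicate 1, and 3 after quantile normalization. The genes called in all were then 639, 686, 530, 783 and 724, beside 1311. The count in AHDK fell to 8 when WT replicate 1 was dropped, to 6 when WT replicate 2 or 3 was, and to 1, 7 and 8 when AHDK replicates 1, 2 and 3 were. It was 10 after quantile normalization. The genes called in all fell there from 704 to 355, 467 and 172, to 31, 505 and 151, and to 411 after quantile normalization. The mean of 59 small RNA genes was 0.56 to 0.97 in the WT uterus arrays and -0.43 to 0.46 in the 12 mutant arrays, so this score and the difference between WT and mutant cannot be told apart. With it as a covariate 0 of the 35 and 0 of all 19938 genes were called in DKO, AKDH and AHDK, where the median log2 difference of the members was then 0.46, 0.03 and 0.78.

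Of the 8 class II presentation genes, 3 rose in DKO, 1 in AKDH and 3 in AHDK, beside 0.973%, 6.58% and 3.53% of all genes called. H2-Aa, the alpha chain of the class II molecule I-A, had WT values of -0.24, -1.53 and -0.996, AKO values of 0.00, -0.04 and 0.03, DKO values of 0.56, 0.20 and 0.42, AKDH values of 0.01, 0.13 and 0.64 and AHDK values of 0.80, 0.74 and 0.44. All 12 mutant arrays were above all 3 WT arrays. Its log2 difference from WT was 1.32 (SE 0.26, adjusted p = 0.0404) in DKO, 1.18 (adjusted p = 0.0233) in AKDH and 1.58 (adjusted p = 0.012) in AHDK, and 0.92 (adjusted p = 0.22) in AKO.

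H2-DMa, a chain of the peptide loader H2-DM, had WT values of -0.35, -0.51 and -0.49, AKO values of -0.10, -0.26 and -0.04, DKO values of 0.92, 0.40 and 0.69, AKDH values of 0.00, 0.07 and 0.89 and AHDK values of 1.04, 1.19 and 0.65. The DKO and AHDK arrays were all above the WT and AKO arrays, and AKDH replicate 3 lay among them. It rose by 1.12 (SE 0.22, adjusted p = 0.0397) in DKO and 1.41 (adjusted p = 0.0114) in AHDK. Cd74, the invariant chain, had WT values of -0.20, -0.26 and -0.40, AKO values of 0.00, 0.14 and 0.01, DKO values of 0.57, 0.23 and 0.30, AKDH values of -0.13, -0.08 and 0.38 and AHDK values of 0.67, 0.79 and 0.47. WT was lowest and AHDK highest, with no overlap between these groups, and Cd74 rose by 0.66 (SE 0.14, adjusted p = 0.0483) in DKO and by 0.93 (adjusted p = 0.00916) in AHDK.

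H2-Ab1, the beta chain of I-A, had WT values of 0.08, -0.81 and -0.50, AKO values of -1.02, 0.00 and -0.07, DKO values of 0.38, 0.02 and 0.44, AKDH values of -0.13, 0.08 and 0.30 and AHDK values of 0.77, 0.79 and 0.33. AHDK did not overlap WT, and the difference of 1.04 had an adjusted p of 0.0628. Ciita, the class II transactivator, had WT values of -0.02, -0.13 and -0.08, AKO values of 0.00, 0.15 and -0.11, DKO values of 0.35, 0.01 and 0.17, AKDH values of -0.21, 0.01 and 0.08 and AHDK values of 0.13, 0.43 and 0.21. Its log2 differences from WT were 0.25 (adjusted p = 0.312) in DKO and 0.33 (adjusted p = 0.116) in AHDK, the smallest of the class II group in AHDK. The protease Ctss differed from WT by 0.72 in DKO and 0.89 in AHDK and the costimulatory gene Cd86 by 0.44 and 0.52, and none of these passed the test.

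H2-Eb1, the beta chain of the second class II molecule I-E, followed another pattern, with 1 low array in each of 3 tissues. In uterus it had WT values of 0.24, -0.10 and -0.03, AKO values of -2.64, -0.11 and -0.26, DKO values of 0.10, 0.00 and 0.71, AKDH values of 0.19, 0.23 and 0.26 and AHDK values of 0.82, 0.46 and 0.08. In oviduct it had WT values of 0.23, -0.54 and -0.53 and AKO values of -2.54, -0.34 and -0.78. AKO replicate 1 was thus lowest by far in both organs, 1.76 below the other 19 female arrays, the widest such gap of the 19938 genes, with 0.14 the next. H2-Ab1 was -1.02 and -1.24 in the same pair of arrays, the lowest value of the uterus and the second lowest of the oviduct. The labels give both arrays the number 1 and do not say that they came from 1 animal. Across all genes, uterus and oviduct AKO arrays of the same number deviated together from their group means, with correlations of 0.161, 0.457 and 0.461. Among the vas deferens arrays DKO replicate 1 was -1.98 for H2-Eb1, 1.14 below the other 14.

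H2-Aa and H2-Eb1 are printed here because they differed in their pattern across arrays while both carry the class II promoter letters searched for. The 120 bases before the RefSeq start of each gene (build GRCm38.p6) are at chr17:34287824-34287943 on the minus strand for H2-Aa and at chr17:34305747-34305866 on the plus strand for H2-Eb1. Capitals mark GCAACT, part of the X box, and CTGATTGG, the Y box.
H2-Aa: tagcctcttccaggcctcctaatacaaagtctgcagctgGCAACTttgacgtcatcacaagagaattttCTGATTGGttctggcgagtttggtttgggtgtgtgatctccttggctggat
H2-Eb1: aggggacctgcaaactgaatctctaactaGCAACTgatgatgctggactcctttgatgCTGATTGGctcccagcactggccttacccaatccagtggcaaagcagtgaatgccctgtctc
Both motifs were searched on both strands in the RefSeq promoter windows of 250 bases before to 50 bases after the start. CTGATTGG was found in 4.1% of 32851 windows, GCAACT in 10.9% and both in 153 windows, which is 0.466%. There were 30 windows of 26 of the genes, and among these H2-Aa and H2-Eb1 were the members with both. H2-Ab1, Cd74, Ciita, Adgre1, Csf1r, Clec10a, Cd14, Lyve1 and Cd86 had no window and were not searched.

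Of the 2 growth factor receptors, Csf1r rose in AHDK and Flt3 in no uterus group, beside 3.53% of all genes called in AHDK. Csf1r had WT values of 0.00, -0.23 and 0.00, AKO values of 0.37, 0.26 and -0.05, DKO values of 1.39, 0.53 and 0.80, AKDH values of -0.21, 0.20 and 0.64 and AHDK values of 1.27, 1.07 and 0.63. The DKO and AHDK arrays were all above the WT arrays. The log2 difference was 0.98 (SE 0.25, adjusted p = 0.0834) in DKO and 1.07 (adjusted p = 0.0401) in AHDK. For Flt3 it was 0.03 in DKO and 0.24 in AHDK.

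Of the 13 monocyte and macrophage genes, 6 rose in AHDK and 0 were called in AKO, DKO or AKDH by limma (at an unadjusted p below 0.05, AKO had 1 lower, DKO had 6 higher, and AKDH had 1 higher and 2 lower). Of all genes, 3.53% were called in AHDK, and 9.35%, 15.3% and 22.7% had an unadjusted p below 0.05 in AKO, DKO and AKDH. Itgam, the integrin alpha chain CD11b of monocytes, macrophages and granulocytes, had WT values of -0.66, 0.26 and -0.54, AKO values of -0.13, -0.02 and -0.04, DKO values of 1.53, 0.70 and 0.67, AKDH values of -0.17, 0.33 and 0.70 and AHDK values of 1.56, 1.37 and 1.21. AHDK was above every WT, AKO and AKDH array. Itgam rose by 1.69 (SE 0.28, adjusted p = 0.0123) in AHDK, and the difference in DKO was 1.27 (adjusted p = 0.0595).

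Adgre1, the macrophage surface protein F4/80, had WT values of -0.37, -0.52 and 0.16, AKO values of 0.28, 0.00 and -0.10, DKO values of 1.32, 0.41 and 0.87, AKDH values of -0.32, 0.28 and 0.51 and AHDK values of 1.52, 1.42 and 0.77, where it rose by 1.48 (adjusted p = 0.0207). Aif1, the calcium-binding protein Iba1, had WT values of -0.21, -0.19 and 0.19, AKO values of 0.42, 0.00 and 0.05, DKO values of 0.80, 0.54 and 0.37, AKDH values of -0.19, -0.15 and 0.22 and AHDK values of 0.91, 0.88 and 0.60, where it rose by 0.86 (adjusted p = 0.0207). For both genes the DKO and AHDK arrays lay above all WT arrays, and the AKO and AKDH arrays overlapped WT.

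The lysosomal protein gene Cd68 had WT values of -0.53, -0.02 and 0.14, AKO values of 0.55, -0.23 and 0.28, DKO values of 1.11, 0.04 and 0.27, AKDH values of 0.00, -0.28 and 0.06 and AHDK values of 1.00, 1.13 and 0.85. Its rise in AHDK was 1.12 (adjusted p = 0.0447), and DKO overlapped WT. Trem2, a lipid-sensing receptor, had WT values of -0.19, -0.37 and -0.17, AKO values of -0.04, 0.09 and 0.00, DKO values of 0.46, 0.20 and 0.24, AKDH values of -0.03, -0.23 and -0.09 and AHDK values of 0.02, 0.89 and 0.44, where it rose by 0.69 (adjusted p = 0.0454). Cd14, a coreceptor for lipopolysaccharide, went otherwise in DKO. It had WT values of -0.31, -0.30 and -0.03, AKO values of -0.06, 0.04 and 0.19, DKO values of 0.14, -0.27 and -0.34, AKDH values of 1.02, 0.10 and 0.27 and AHDK values of 0.91, 0.33 and 1.16. It rose by 1.02 (adjusted p = 0.0457) in AHDK, and the difference in DKO was 0.06.

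The other 7 genes of this group did not pass the test against WT in any uterus genotype. Their log2 differences in AHDK ran from 0.01 for the lysozyme Lyz1 to 1.15 for the inhibitory receptor Pilra, with Ms4a7, a membrane-spanning macrophage gene, at 1.00 (adjusted p = 0.0851). Lyz1 and Lyz2 are near-identical copies whose probe sets may share signal, and in AKO and AKDH the log2 difference of Lyz1 from WT was -0.75 (adjusted p = 0.356) and -0.60 (adjusted p = 0.206).

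All 3 Fc receptor genes rose in AHDK and 1 of them in DKO, beside 3.53% and 0.973% of all genes called. Fcer1g, the signalling chain shared by activating Fc receptors, had WT values of -0.26, -0.54 and -0.27, AKO values of 0.27, -0.02 and 0.15, DKO values of 1.68, 0.50 and 0.83, AKDH values of 0.00, 0.14 and 0.78 and AHDK values of 1.40, 1.47 and 0.87. All 12 mutant arrays were above the WT arrays, and the DKO mean owed most to replicate 1. Fcer1g rose by 1.36 (SE 0.28, adjusted p = 0.0468) in DKO and 1.60 (adjusted p = 0.0141) in AHDK.

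The high-affinity IgG receptor gene Fcgr1 had WT values of -0.19, 0.00 and 0.10, AKO values of 0.19, -0.02 and 0.08, DKO values of 0.85, 0.30 and 0.37, AKDH values of -0.12, -0.12 and 0.48 and AHDK values of 1.40, 0.67 and 0.77. The low-affinity receptor gene Fcgr3 had WT values of -0.16, -0.38 and -0.13, AKO values of 0.34, 0.00 and 0.05, DKO values of 0.72, 0.18 and 0.25, AKDH values of -0.25, 0.04 and 0.28 and AHDK values of 0.80, 0.54 and 0.35. Neither gene overlapped WT in DKO or in AHDK, where all arrays lay above WT for 11.6% and 14.2% of all genes. In AHDK Fcgr1 rose by 0.98 (adjusted p = 0.0317) and Fcgr3 by 0.79 (adjusted p = 0.0339), and in DKO the differences were 0.54 (adjusted p = 0.26) and 0.61 (adjusted p = 0.121).

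The 9 lectin and scavenger receptor genes were placed otherwise: their median log2 difference from WT was 1.03 for AKO, 0.72 for DKO, 0.82 for AKDH and 0.75 for AHDK, against 0.22, 0.61, 0.07 and 1.00 for the 13 monocyte and macrophage genes. Cd209f, a C-type lectin of the DC-SIGN family, had WT values of -1.42, -1.55 and -1.75, AKO values of 0.67, 0.12 and 0.34, DKO values of 0.76, 0.13 and 1.17, AKDH values of -0.65, 0.47 and 1.32 and AHDK values of 0.87, 0.97 and 0.00. WT was below every mutant array. Cd209f rose by 2.26 (SE 0.43, adjusted p = 0.0397) in DKO, 1.95 (adjusted p = 0.0227) in AKDH and 2.19 (adjusted p = 0.0218) in AHDK, and the difference of 1.95 in AKO had an adjusted p of 0.112.

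Its relatives Cd209a (2.46, adjusted p = 0.0204) and Cd209d (1.35, adjusted p = 0.0392) rose in AKDH, beside 6.58% of all genes called. Cd209a ran from 0.01 to 1.99 in AKDH and was -0.66, -1.29 and -2.33 in WT. The probe sets of Cd209a and Cd209f may share signal, so their calls may not be separate. Cd209a also varied among WT arrays of another organ, with -0.24, -2.11 and -1.12 in WT oviduct. Lyve1, a hyaluronan receptor of lymphatic endothelium and of some macrophages, had WT values of 0.00, -0.67 and -0.56, AKO values of 0.38, 0.41 and 0.12, DKO values of 0.00, -0.38 and 0.08, AKDH values of 0.32, 0.61 and 0.59 and AHDK values of 0.58, 0.14 and 0.07. It rose by 0.92 (adjusted p = 0.0189) in AKDH, and the highest uterus values were in AKDH replicates 2 and 3. Of 5 lymphatic endothelium genes, all 5 were above WT in AKDH and 1, Mmrn1, rose (1.37, adjusted p = 0.0318), beside 6.58% of all genes called. Their mean was 0.13 to 0.41 in AKDH, 0.15 to 0.70 in AKO and -0.61 to 0.28 in WT. Their part in the Lyve1 result was not tested.

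Mrc1, the mannose receptor, had WT values of -0.36, -1.23 and -0.68, AKO values of 0.74, 0.56 and 0.07, DKO values of 0.62, 0.31 and 0.49, AKDH values of -0.87, 0.16 and 0.88 and AHDK values of 0.65, 0.17 and 0.00. AKO, DKO and AHDK did not overlap WT, AKDH replicate 1 did, and no difference passed the test (0.82 to 1.23). The galactose lectin gene Clec10a differed from WT by 0.69 to 1.03 and the folate receptor gene Folr2 by 0.38 to 0.72, also without passing. Marco, a scavenger receptor, was below WT in all 4 genotypes by 0.18 or less.

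**Figure D2:**
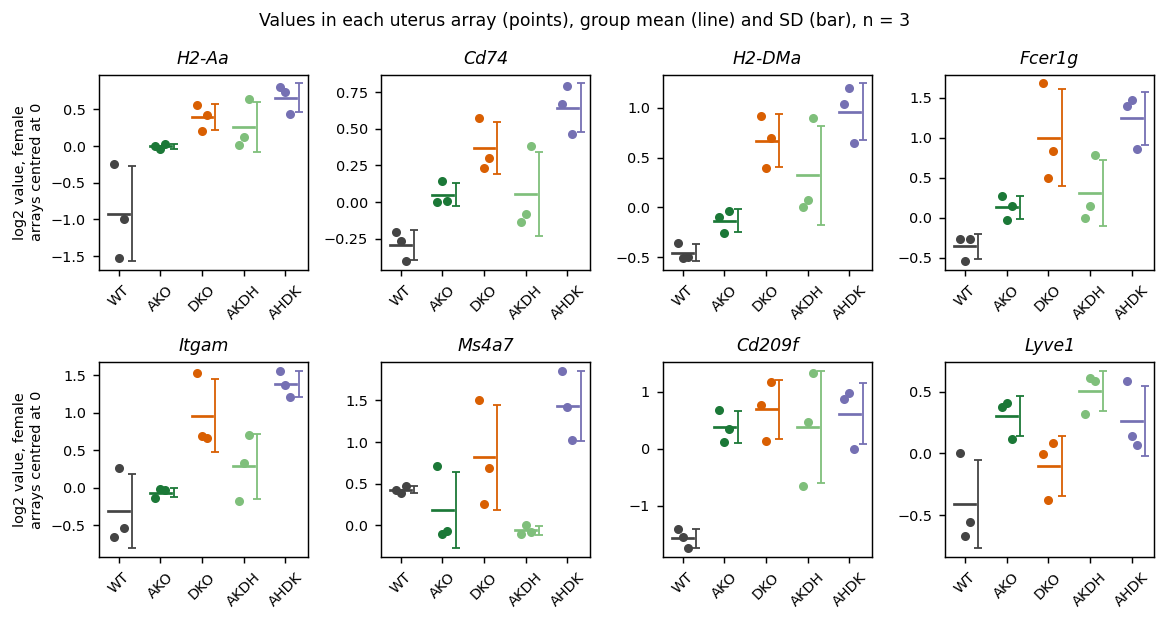
Log2 value, relative to the median of the female arrays, of 8 genes in each uterus array (points), by genotype, with the mean (line) and SD (bar) of each group of 3. H2-Aa, Fcer1g and Cd209f lie above WT in all 12 mutant arrays, Ms4a7 is 1.02 to 1.86 in AHDK and -0.10 to 0.00 in AKDH, and Lyve1 is 0.32 to 0.61 in AKDH.

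The Hoxd-null and Hoxa-null uteri were then set against each other directly, a comparison added after the data were seen. The means compared leave WT out, while the WT arrays add to the estimate of the spread. With 6 arrays on each side, 12 of the 35 genes were higher in the Hoxd-null uteri and 0 lower, beside 4.95% of all genes called in either direction and 2.7% called higher (limma, all 15 uterus arrays in the fit). The 12 were Aif1, Itgam, Ctss, Ms4a7, H2-DMa, Adgre1, Cd74, Fcer1g, Fcgr1, Csf1r, Lyz2 and Itgax. The median difference of the 35 was 0.55. By role, 3 of 8 class II genes, 1 of 2 growth factor receptors, 6 of 13 monocyte and macrophage genes, 2 of 3 Fc receptor genes and 0 of 9 lectin and scavenger receptor genes were called.

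Itgam ran from 0.67 to 1.56 (median 1.29) in the Hoxd-null arrays and from -0.17 to 0.70 (median -0.03) in the Hoxa-null arrays, a difference of 1.06 (SE 0.20, adjusted p = 0.0147). Ctss, cathepsin S, ran from 0.39 to 1.54 (median 0.86) and from -0.31 to 0.28 (median 0.01), a difference of 0.94 (adjusted p = 0.0163). Ctss and Itgax, the integrin alpha chain CD11c, were the members with no overlap between the 6 arrays of each side, a pattern that 1.7% of all genes showed in this direction. Ms4a7 ran from 0.25 to 1.86 (median 1.22) and from -0.10 to 0.72 (median -0.07), a difference of 1.06 (adjusted p = 0.0175).

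Aif1 had the smallest adjusted p of the members (difference 0.62, SE 0.12, adjusted p = 0.0143). Cd74 differed by 0.45 (adjusted p = 0.024) and H2-Aa by 0.40 (adjusted p = 0.245). Of the lectins, Cd209a (-0.44, adjusted p = 0.556), Lyve1 (-0.32, adjusted p = 0.201), Cd209d (-0.21) and Clec10a (-0.17) lay lower in the Hoxd-null uteri without passing the test. The count of 12 was also 12 with quantile normalization, with array medians subtracted, with the replicate number as a block and with the small RNA score as a covariate. With only the 12 mutant arrays in the fit it was 10. It was 7, 5 and 8 without AKO replicates 1, 2 and 3, 6 without AKDH replicate 1, and 4 and 5 without AHDK replicates 1 and 2. The genes called in all were then 636, 438, 833, 639, 346 and 612, beside 987 with all arrays.

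**Figure D3:**
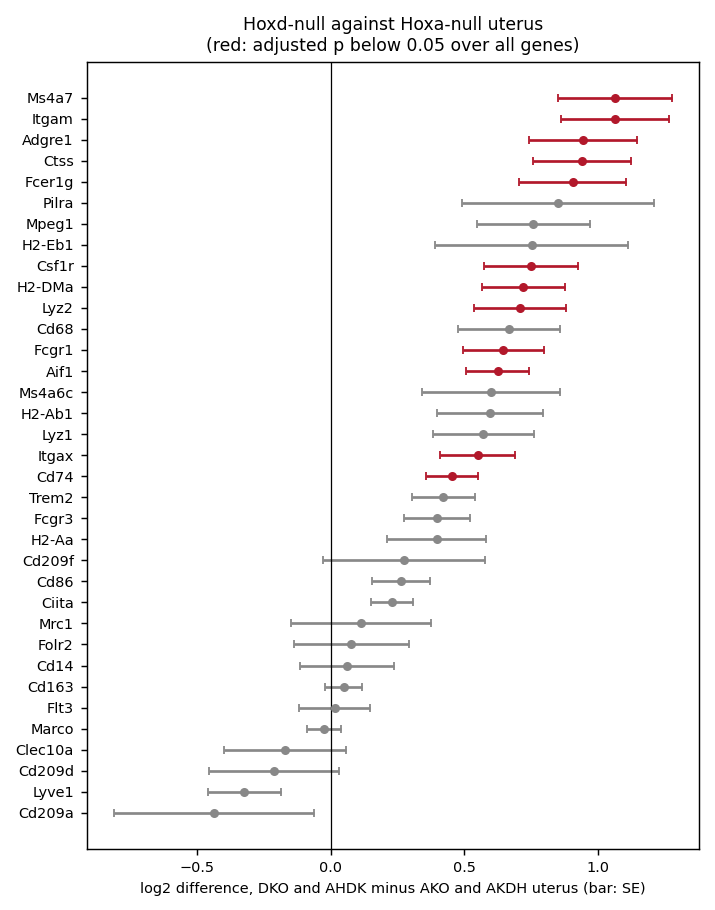
Log2 difference (horizontal axis, bar the SE) between the 6 Hoxd-null and the 6 Hoxa-null uterus arrays for each of the 35 genes, in order of size. The 12 genes in red passed an adjusted p of 0.05 over all genes, and 30 of the 35 points lie above 0.

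The pairs of single genotypes gave fewer calls. AHDK against AKDH had 3 of the 35 higher beside 1.72% of all genes called: Ms4a7 (1.49, SE 0.30, adjusted p = 0.0361), Aif1 (0.84, adjusted p = 0.0351) and Ctss (1.18, adjusted p = 0.0472), with 30 of the 35 above. The count was 0 without AKDH replicate 1 or any one of the 3 AHDK arrays and 1 without AKDH replicate 2. DKO against AKO had 0 by limma beside 0.186% of all genes, with 29 of the 35 above, and 11 members at an unadjusted p below 0.05 beside 13.6% of all genes. AHDK against DKO had 0 by limma beside 0.0251% of all genes, and 1 at an unadjusted p below 0.05 beside 7.47%. AKDH against AKO had 0 by limma beside 0.0% of all genes, and 1 at an unadjusted p below 0.05 beside 10.3%.

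Genes of the same pathways outside the list were counted in the same way. Of all genes, 0.0903%, 0.973%, 6.58% and 3.53% were called in AKO, DKO, AKDH and AHDK. At an unadjusted p below 0.05 the shares were 9.35%, 15.3%, 22.7% and 21.4%. Of 15 further class II pathway genes, 0 were called in AKO, DKO and AKDH by limma (at an unadjusted p below 0.05, 1, 5 and 3) and 3 rose in AHDK: the lysosomal proteases Ctsl (1.27, adjusted p = 0.0220) and Ctsh (0.85, adjusted p = 0.0273) and the lysosomal thiol reductase Ifi30 (0.65, adjusted p = 0.0371). In AHDK 2 of 9 class I presentation genes rose, Tapbp (0.64, adjusted p = 0.0130) and Psmb10 (0.53, adjusted p = 0.0267). Of 12 interferon gamma response genes 1 rose there, the receptor chain Ifngr1 (0.67, adjusted p = 0.0257). In AKDH 1 gene of each of these 2 lists rose, Tapbp (0.52, adjusted p = 0.0183) and the GTPase gene Gbp4 (1.68, adjusted p = 0.00437). With 6.58% of all genes called in AKDH, 1 gene in lists of this size is near that share. Of 23 macrophage growth factor, chemokine and transcription factor genes 2 rose in AHDK, the transcription factor Spi1 (1.20, adjusted p = 0.0356) and the receptor chain Csf2rb (0.90, adjusted p = 0.0245). Of 29 other macrophage genes 6 rose there, led by the Fc receptor gene Fcgr4 (1.28, adjusted p = 0.0116), with 27 above WT and a median of 0.79. Of 16 other dendritic cell genes 0 were called by limma in AHDK, with 4 at an unadjusted p below 0.05 beside 21.4% of all genes.

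Markers of other white blood cells moved in the same uteri, where 0.973% of all genes were called in DKO and 3.53% in AHDK. Of 14 genes shared by most leukocytes, 3 rose in DKO and 7 in AHDK, with Rac2, a GTPase of blood cells, at 1.25 (adjusted p = 0.0375) and 1.34 (adjusted p = 0.0123), and their mean was -0.44 to -0.05 in WT, 0.20 to 1.04 in DKO and 0.46 to 0.89 in AHDK. Of 16 neutrophil and eosinophil genes 2 rose in each of the 2 genotypes, Retnlg (3.45 and 3.70, adjusted p = 0.0397 and 0.0162) and Ccr3 (2.30 and 2.42, adjusted p = 0.0397 and 0.0170). The mean of those 16 was -0.35 to -0.02 in WT, 0.36 to 1.45 in DKO and 0.59 to 1.16 in AHDK. Of 19 T, B, NK and mast cell genes 2 rose in AHDK, the B cell receptor chain Cd79b (0.85, adjusted p = 0.0112) and the mast cell protease Mcpt4 (1.72, adjusted p = 0.0487), and 1 in AKDH, Cd79b (0.53, adjusted p = 0.0342). Of all genes 3.53% were called in AHDK and 6.58% in AKDH, so 1 of 19 in AKDH is near that share. In DKO 0 were called by limma and 7 were higher at an unadjusted p below 0.05, as were 7 in AHDK, beside 15.3% and 21.4% of all genes. The mean of those 19 was -0.36 to 0.28 in WT, 0.09 to 0.51 in DKO and 0.27 to 0.64 in AHDK. Itgam, Fcer1g, Fcgr3, Lyz2 and Cd14 are also used by granulocytes, and the part of these other leukocytes in the myeloid result was not tested. The mean of 11 smooth muscle genes was -0.39 to -0.05 in AHDK and -0.49 to 0.43 in WT, with 0 called by limma and 0 at an unadjusted p below 0.05. The mean of 10 epithelial genes was -0.13 to -0.09 in WT, 0.17 to 0.21 in AHDK and -0.54 to -0.19 in DKO, apart from WT in opposite directions. Of these epithelial genes 0 were called by limma, and 4 were higher in AHDK and 2 lower in DKO at an unadjusted p below 0.05, beside 21.4% and 15.3% of all genes. Their part in the myeloid result was not tested.

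In vas deferens limma called no member higher in any mutant, before any alternative setting was applied. At an unadjusted p below 0.05, 2, 1, 0 and 4 members were higher in AKO, DKO, AKDH and AHDK. There 4, 5, 12 and 3 were lower. The share of all genes at this p is not given here, so these counts are only a description. It was at least the share called after adjustment, 9.35%, 5.87%, 24.3% and 4.15% in the same order. Every member higher at this p was one of the 9 lectin and scavenger receptor genes. Of those 9, 7, 5, 7 and 7 lay above WT in the same order, with median log2 differences of 0.34, 0.07, 0.31 and 0.53. Of the 35, 1 was called in AKO (9.35% of all genes), 1 in DKO (5.87%), 6 in AKDH (24.3%) and 1 in AHDK (4.15%), and every one of these was lower. Pilra, an inhibitory receptor of myeloid cells, fell in AKO (-2.08, SE 0.54, adjusted p = 0.0328), AKDH (-2.86, adjusted p = 0.00303) and AHDK (-2.54, adjusted p = 0.0246). It had WT values of 3.42, 2.37 and 1.32, AKO values of 0.41, 0.00 and 0.47, DKO values of 2.14, -0.02 and 1.41, AKDH values of -0.55, -0.21 and -0.70 and AHDK values of -0.54, 0.35 and -0.32. The 3 WT arrays were all above the AKO, AKDH and AHDK arrays, and the comparisons share them.

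The direction in AKO and AKDH was not the same under every setting. Without AKO replicate 2 the calls in AKO were 2 members higher, Folr2 (0.79) and Cd209d (0.89), and none lower. Folr2 was also called higher after quantile normalization, after median subtraction and with the SD filter, beside Pilra lower, and Cd209d with array weights, beside 5 lower. In AKDH, array weights called Cd209f higher (1.10), beside 14 members lower. Of all genes, array weights called 4727 in AKO and 8623 in AKDH.

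Ms4a7 had WT values of 0.59, 0.63 and 0.18 and DKO values of -0.12, -0.60 and -0.46, and fell by 0.86 (adjusted p = 0.0432). The further falls in AKDH were Cd74 (-0.81, SE 0.20, adjusted p = 0.0121), which had WT values of 0.25, 0.53 and 0.10 and AKDH values of -0.64, -0.35 and -0.56, Itgam (-0.42), Flt3 (-0.36), Itgax (-0.28) and Marco (-0.25). For AKDH, omitting WT replicate 2 left 1 call, omitting AKDH replicate 2 left 3, and omitting AKDH replicate 3, the array that stood apart, left 4. The single calls in AKO, DKO and AHDK were 0 without WT replicates 1 or 2; 2 members were called in DKO without WT replicate 3, and 0 were called in AKO without AKO replicates 1 or 3, in DKO without any one DKO array, and in AHDK without AHDK replicates 1 or 3.

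Fat, muscle and sperm genes also had different ranges in these vas deferens groups. The mean of 18 adipocyte genes was -0.81 to 0.05 in WT, 0.20 to 1.01 in AKO, -0.38 to -0.05 in DKO, 0.91 to 1.17 in AKDH and 0.72 to 1.38 in AHDK, and that of 11 smooth muscle genes was 0.30 to 0.79 in WT and -0.42 to -0.05 in AKDH. With the adipocyte mean as a covariate 0 of the 35 were called in any of the 4 mutants, beside 466, 716, 512 and 0 of all genes in AKO, DKO, AKDH and AHDK (1865, 1170, 4849 and 827 without it). The median log2 difference of the members was -0.14, -0.17, -0.39 and -0.14 with the covariate and -0.09, -0.16, -0.25 and -0.04 without it. The mean of 10 sperm and spermatid genes was 0.05 to 0.68 in WT, -1.02 to -0.79 in AKO and -0.07 to 1.24 in AHDK, and their part in the Pilra result was not tested.

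Between mutants in vas deferens, DKO against AKO had Flt3 higher (0.30, adjusted p = 0.0438) and Folr2 (-0.72, adjusted p = 0.0189), Lyz1 (-1.26, adjusted p = 0.031) and Cd14 (-0.53, adjusted p = 0.0485) lower, beside 17.8% of all genes. That count of 4 was 0 without AKO replicate 1, AKO replicate 3 or DKO replicate 2, 1 without DKO replicate 3, and 6 without AKO replicate 2. Flt3 was also higher in AHDK than in AKDH (0.38, adjusted p = 0.0443, 4.05% of all genes called), and this call was lost without any AKDH array or AHDK replicates 2 or 3. AKDH against AKO (1.29% of all genes) and AHDK against DKO (0.366%) had 0 by limma, and 5 and 7 at an unadjusted p below 0.05 beside 14.2% and 13.1% of all genes.

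The difference between the tissues was tested in 1 fit of all 42 arrays, in which the centring by sex cancels within each effect. The effect of DKO was larger in uterus than in vas deferens for 6 of the 35 genes (1.69% of all genes called), that of AKDH for 7 (15.6%) and that of AHDK for 13 (3.25%), and 0 were smaller. For AKDH, 7 of 35 is near the share of all genes. The effect of AKO differed for 0 by limma (5.13%, with 3 at an unadjusted p below 0.05 beside 17.7%). Organ and sex cannot be told apart here. In AHDK, Itgam differed by 1.89 (SE 0.35, adjusted p = 0.00224), with 1.69 in uterus and -0.20 in vas deferens, and Fcer1g by 1.75 (adjusted p = 0.00288), with 1.60 and -0.15.

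H2-Aa and Cd74 passed this test in DKO, AKDH and AHDK. For H2-Aa the differences were 1.57, 1.66 and 1.51, and for Cd74 they were 1.12, 1.15 and 1.19. For Pilra (3.20 in AKDH and 3.69 in AHDK) the difference came mostly from the fall in vas deferens. Leaving out 1 array at a time gave 1 to 11 genes in DKO, 4 to 9 in AKDH and 5 to 15 in AHDK. For DKO the count was 3 without uterus WT replicate 1 or 2, 2 without uterus DKO replicate 1 or vas deferens WT replicate 1, and 1 without vas deferens WT replicate 2 or vas deferens DKO replicate 2 or 3. It was 11 without uterus DKO replicate 2 and 10 without vas deferens WT replicate 3. For AKDH it was 4 without uterus AKDH replicate 3, vas deferens AKDH replicate 3 or vas deferens WT replicate 2. For AHDK it was 8 without uterus WT replicate 1 or vas deferens AHDK replicate 1, 6 without uterus AHDK replicate 1, vas deferens WT replicate 1 or vas deferens AHDK replicate 3, and 5 without vas deferens WT replicate 2.

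**Figure D4:**
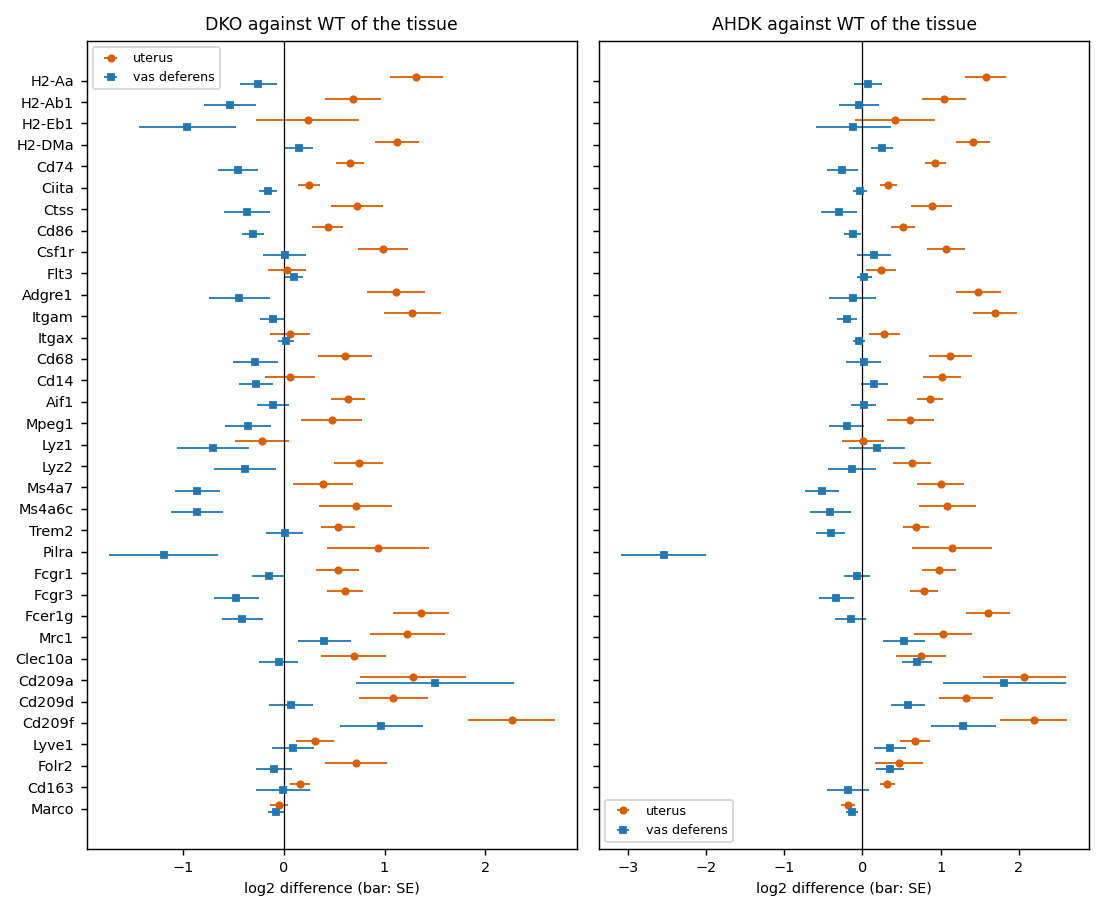
Log2 difference from WT of the same tissue (horizontal axis, bar the SE) for each of the 35 genes in uterus (orange circles) and vas deferens (blue squares), for DKO on the left and AHDK on the right. In AHDK 34 of the 35 uterus points lie above 0 while 15 of the vas deferens points do.

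In oviduct 0 of the 35 genes were called in AKO by limma, beside 0.0% of all genes, and 1 reached an unadjusted p below 0.05, as did 609 of all genes (3.05%). The count stayed at 0 with the replicate number as a block and without any one of the 6 arrays, among them WT replicate 2 and replicate 3 of WT and of AKO. In epididymis 0 were called in AKO, beside 0.782% of all genes, and 7 reached an unadjusted p below 0.05 beside 16.0% of all genes, all 7 lower, with Csf1r at -0.39 (SE 0.09, adjusted p = 0.114) and the haemoglobin scavenger receptor gene Cd163 at -0.42 (adjusted p = 0.158). The effect of AKO did not pass a test of difference for any of the 35 between oviduct and uterus (0.0% of all genes, with 4 members at an unadjusted p below 0.05 beside 4.25%) or between epididymis and vas deferens (7.22%, with 4 beside 20.2%). The counts of 0 became 1 between uterus and vas deferens without uterus WT replicate 1, vas deferens WT replicate 3 or vas deferens AKO replicate 2, and 2 between epididymis and vas deferens without vas deferens AKO replicate 2.

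Between WT organs, 5 of the 35 genes were lower in oviduct than in uterus and 0 higher, beside 23.9% of all genes: Lyz1 (-1.22, SE 0.24, adjusted p = 0.00155), Ms4a7 (-1.08), Mpeg1, a pore-forming protein of macrophages (-0.99), Ctss (-0.77) and Itgax (-0.69). Without oviduct WT replicate 3 the count was 1, without uterus WT replicate 1 or 3 it was 3, and without oviduct WT replicate 2 it was 5. In epididymis 6 were lower than in vas deferens and 0 higher, beside 28.1% of all genes: Pilra (-2.29, adjusted p = 0.00168), Itgam (-0.86, adjusted p = 0.000332), Ms4a7 (-0.85), Ctss (-0.59), Cd74 (-0.55) and Cd86 (-0.39). Both 5 of 35 and 6 of 35 are smaller shares than those of all genes.

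Cd209a fell into separate ranges among the male arrays, with low arrays in WT, AKO and AKDH and none in DKO and AHDK. In vas deferens it had WT values of 0.03, -1.80 and -2.14, AKO values of 0.66, -1.89 and 0.00, DKO values of 0.54, 0.08 and -0.03, AKDH values of -2.20, 0.08 and 0.17 and AHDK values of -0.03, 1.31 and 0.26. In epididymis it had WT values of -0.80, -1.96 and -2.16 and AKO values of 0.27, -2.04 and 0.12. Thus 7 of the 21 male arrays lay between -2.20 and -1.80 and the other 14 between -0.80 and 1.31. WT replicates 2 and 3 and AKO replicate 2 were low in both male organs, and same-numbered arrays of the 2 organs deviated together over all genes with correlations of 0.287, 0.176 and 0.281 in WT and 0.143, 0.141 and 0.19 in AKO. The gene most like it across the 21 male arrays was Cd209f (Pearson r 0.899, given as a description), and the next gene had an r of 0.696. The 2 genes are relatives whose probe sets may share signal.

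**Figure D5:**
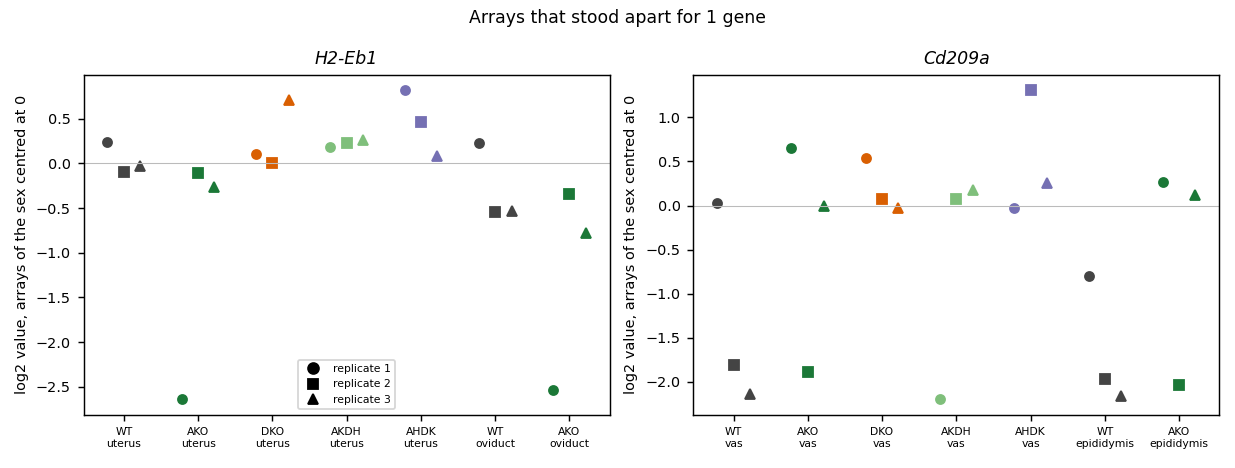
Log2 value of H2-Eb1 in the female arrays (left) and of Cd209a in the male arrays (right), relative to the median of the arrays of that sex, by group, with the replicate number as the symbol. H2-Eb1 is -2.64 and -2.54 in AKO replicate 1 of uterus and oviduct, and Cd209a lies below -1 in 7 male arrays, among them WT replicates 2 and 3 and AKO replicate 2 of both organs.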

How the data were processed

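RNA of 42 samples (300 ng each, 3 samples in each of 14 groups) was labelled and hybridised to 1-colour Affymetrix arrays, per the labels' protocols. The deposited table gives log2 values that the authors deposited already centred: every one of the 28856 probe sets has a median of 0 over the 21 female and over the 21 male arrays. Their log base was assumed to be 2, since it and the steps of summarisation and normalisation were not given in the sources used here. Signal over background is lost, so a gene that was not detected cannot be told from one that was, and only the number of arrays limits the precision that can be stated. Of the probe sets, 21789 carry 1 gene symbol, 1621 several and 5446 none, and 21698 of the first matched RefSeq (GRCm38.p6) by gene ID. Probe sets of 1 gene were averaged (19938 genes).

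Groups were compared with limma 3.58.1 (lmFit, eBayes) in R 4.3.3, 1 fit per tissue with all its genotypes, a fit per sex for organs of the same sex, and a fit of all arrays for uterus against vas deferens. A gene was called at a Benjamini-Hochberg adjusted p below 0.05, computed across the whole table. The labels call the replicates biological. A list mean is the mean log2 value of its genes on an array, and groups do not overlap where every array of one lies above every array of the other. The code was tested on simulated data. Genes with values in every array were those called in uterus DKO or AHDK and H2-Ab1, H2-Eb1, Ciita, Csf1r, Adgre1, Mrc1 and Lyve1. Of other lists, up to 5 called genes per uterus comparison were named. Members and lists were chosen with earlier results of these data known.

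Replicate numbers were checked as pairs: 4 of 42 pairs of groups had a correlation of deviations above 0.1 for all 3 numbers, among them WT and AKO oviduct. Alternatives were quantile normalization, median subtraction, a replicate block, 1 probe set per gene, a filter on spread, robust and array-weighted fits, fits of the compared groups alone, list means as covariates, and leaving out arrays.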

Additional observations from a re-analysis of the deposited data

Results flagged for a closer look

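A difference in effect between uterus and vas deferens passed the test of that difference (limma, all 42 arrays, adjusted over all genes) for the genes below, each higher in uterus. In DKO these were Fcer1g (1.77), H2-Aa (1.57), Itgam (1.39), Cd74 (1.12), Fcgr3 (1.08) and Cd86 (0.74). In AKDH they were Pilra (3.20), H2-Aa (1.66), H2-Ab1 (1.25), Cd74 (1.15), Fcer1g (1.03), Itgam (1.02) and H2-DMa (0.98). In AHDK they were Pilra (3.69), Itgam (1.89), Fcer1g (1.75), Adgre1 (1.61), Ms4a7 (1.52), H2-Aa (1.51), Cd74 (1.19), H2-DMa (1.16), Fcgr3 (1.12), Trem2 (1.10), Fcgr1 (1.05), Aif1 (0.84) and Cd86 (0.65). Of all genes 1.69%, 15.6% and 3.25% were called in DKO, AKDH and AHDK, so the AKDH count is near the share of all genes. With any 1 of the 12 arrays of a comparison left out, Fcer1g kept its call in DKO, H2-Aa, H2-DMa, Cd74 and Pilra in AKDH, and H2-DMa, Cd74, Itgam, Fcer1g and Pilra in AHDK. The other genes lost theirs without at least 1 array. The WT small RNA score of the uterus moves with the uterus side of these differences, and its part in them was not tested.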

How the results depend on the processing

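No member called in a comparison changed direction itself. In vas deferens AKO some alternatives called other members in the opposite direction, and array weights did so for Cd209f (1.10) in vas deferens AKDH. Beside the single-array omissions, the counts of members called stayed within 1.5 times in 163 cases, were larger in 17 and smaller in 23. The 163 include counts of 0 that stayed 0. That was so in every such setting of uterus AKO, oviduct AKO, uterus DKO against AKO and uterus AKDH against AKO. The 163 are thus no measure of how stable the called members were. Quantile normalization gave 0 members in uterus DKO, 3 in uterus AKDH, 10 in uterus AHDK and 5 in uterus AHDK against AKDH. It gave 2 in vas deferens AKO, 0 in vas deferens DKO and 1 in vas deferens AKDH against AKO. Between WT oviduct and uterus it gave 3, and for the AKO effect between uterus and vas deferens 1. Subtracting array medians gave 3 in uterus DKO, 2 in vas deferens AKO and 0 in vas deferens AHDK against AKDH. The replicate block, where the numbers mostly do not pair the samples, gave 1 in uterus DKO, 2 in vas deferens DKO and 0 in vas deferens AHDK against AKDH, and changed no other count by over 1.5 times. Keeping the genes with an SD above the median gave 2 in vas deferens AKO and 8 in uterus AHDK against AKDH. Array weights gave 23 in uterus AHDK, 3 in uterus AHDK against DKO and 11 in uterus AHDK against AKDH. Of all 19938 genes, 3227, 1164 and 1620 were then called, beside 704, 5 and 343 without weights. The weights gave 6, 6, 15 and 2 in vas deferens AKO, DKO, AKDH and AHDK. Of all genes 4727, 3926, 8623 and 2049 were called there, so the members' share was no larger in any of them. Array weights also gave 2 in epididymis AKO (996 of all genes) and 16 between WT epididymis and vas deferens (9565). Fitting only the compared groups, with fewer samples, gave 0 in uterus DKO and AKDH, 0 in vas deferens AHDK, 2 in vas deferens DKO against AKO and 0 in vas deferens AHDK against AKDH. The small RNA covariate gave 0 in uterus DKO, AKDH and AHDK, and the adipocyte covariate gave 0 in all 4 vas deferens mutants, in DKO against AKO and in AHDK against AKDH. The cause of these changes was not tested.

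Leaving out 1 array at a time ranged from 0 to 1 in uterus AKO, 0 to 1 in uterus DKO, 0 to 8 in uterus AKDH, 1 to 8 in uterus AHDK, 0 to 3 in uterus AHDK against AKDH, 4 to 14 for the Hoxd-null against the Hoxa-null uteri, 0 to 2 in vas deferens AKO and DKO, 1 to 5 in vas deferens AKDH, 0 to 1 in vas deferens AHDK, 0 to 6 in vas deferens DKO against AKO, 0 to 1 in vas deferens AHDK against AKDH, 1 to 5 between WT oviduct and uterus and 4 to 9 between WT epididymis and vas deferens. Between uterus and vas deferens it ranged from 0 to 1 for AKO, 1 to 11 for DKO, 4 to 9 for AKDH and 5 to 15 for AHDK, and between epididymis and vas deferens from 0 to 2 for AKO. The count of all genes called also moved, in uterus DKO from 194 to between 2 and 133 and in uterus AHDK from 704 to between 31 and 505. Without the arrays that stand apart, vas deferens AKDH had 4 members and AHDK against AKDH 0. The signal over background is not known, so it is not known which members were near it.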

Other observations

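H2-DMb1, the listed gene left out of the counts, shares its probe set with H2-DMb2, and both encode beta chains of the peptide loader H2-DM. In uterus that probe set had WT values of -0.04, 0.00 and -0.11, AKO values of -0.11, 0.00 and 0.14, DKO values of 0.30, 0.16 and 0.53, AKDH values of -0.08, 0.02 and 0.39 and AHDK values of 0.41, 0.77 and 0.46. The 3 DKO and the 3 AHDK arrays were above all WT arrays, as they were for H2-DMa, and the difference was not tested.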
